A study of Drosophila melanogaster with 6 samples.

Results

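Odorant-binding proteins are the Obp family of Drosophila melanogaster, and here they are followed in testes mutant for *Pof*, the gene for an RNA-binding protein that coats the fourth chromosome, and in wild type testes. The members are the probe sets that the array's annotation assigns to exactly 1 gene with a symbol formed of Obp and a number. This gave 50 probe sets of 47 genes, out of 13647 probe sets of 11982 genes that name a single gene, and no minimum level was set. The mutant males carried *y1 w67c23*; *PofD119/PofD119* and the wild type males *y1 w67c23*, so that both genotypes share the X-linked markers. Whether the stocks share the rest of their genetic background was not stated. All flies were reared at 25 °C and were 0 to 24 h old, and each of the 3 biological replicates per genotype was a pool of 60 dissected testes on 1 Affymetrix array. Levels are log2 values made with RMA, a method that subtracts background, brings the probe values of all arrays to 1 distribution and summarises each probe set. They compare arrays for 1 probe set and say nothing about which of 2 genes has more RNA, and a difference of 1 is a 2-fold change. A level below 6 is marked as low, after the minimum that the study used to set aside weakly expressed genes.

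Odorant-binding proteins are small, soluble, secreted proteins that carry hydrophobic molecules in a pocket. They are best known from the lymph that bathes olfactory and gustatory neurons in the hairs of the antenna and mouthparts, where they bring odorants and pheromones within reach of receptors or clear them away. Many members of the family are expressed elsewhere, and several are made in the male reproductive tract and passed to the female with the seminal fluid.

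The *Pof* probe set itself had levels of 10.38, 10.50 and 10.30 in *Pof* mutant testes, against 12.98, 13.06 and 12.89 in wild type testes, a difference of -2.59 (adjusted p = 9.54e-05 by limma, a linear model that borrows the spread of all probe sets), so the labels and the gene go the same way. The sources do not give the position of the D119 lesion relative to this probe set. The testis markers *betaTub85D*, *Mst87F* and *Mst98Ca*, a tubulin of the male germ line and a pair of sperm tail genes, lay between 13.63 and 13.93 on all arrays. Of the 8 male germline genes listed, *dj*, a late sperm gene, was lower in the mutant (difference -0.75, adjusted p = 0.00442), *can* and *fzo* did not pass the test, and *aly* and *vas* were below 6. Markers of neighbouring tissues were also high. All 15 measured accessory gland genes were above 6 in both genotypes, and their summed level was 17.17 to 17.33 in the mutant and 17.04 to 17.27 in the wild type. *EbpII*, an ejaculatory bulb gene, reached 13.93 in the mutant and 13.47 in the wild type. Muscle genes summed to 9.94 to 11.06 in the mutant and 9.88 to 11.51 in the wild type, while of 8 neuron and glia probe sets 6 averaged below 6, *elav* and *repo* among them, and 2, of the synaptic genes *nSyb* and *brp*, lay between 6.65 and 7.27. The arrays of replicate 2 stood apart in both genotypes on principal component 1 (51.2% of variance), and component 2 (32.0%) separated the genotypes.

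The comparison asks which Obp genes change in the testis when *Pof* is mutated. Most Obp genes were low in these samples, and few differed between the genotypes. The mean was below 6 in both genotypes for 32 probe sets of 29 genes. The other 18 probe sets, of 18 genes, were at 6 or above in both, which is 36% of the 50 probe sets, beside 58.8% of all probe sets in the wild type. Of 51 Obp genes in the RefSeq annotation, 4 had no probe set of their own and are outside these counts, namely *Obp50b*, *Obp50c*, *Obp57d* and *Obp83a*. Over the family, 44 of 50 differences were within 0.5 of zero, beside 12652 of 13647 for all probe sets. The median difference, *Pof* mutant minus wild type, was 0.048 (quartiles -0.095 and 0.22, range -1.95 to 2.08), beside 0.0067 for all probe sets and 0.037 for all probe sets that were below 6 in both genotypes.

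After Benjamini-Hochberg adjustment over all 13647 probe sets, 1 member was higher in the mutant and 1 was lower at an adjusted p under 0.05. Among all probe sets 1.14% were called higher and 1.34% lower, so that 1 of 50 in each direction is close to the background. With the replicate number as a block, the background went to 1.69% higher and 2.30% lower and the same 2 members were called. All 3 mutant arrays were above all 3 wild type arrays for 8 members (background 9.13%) and below them for 4 (background 10.8%). Before adjustment, 7 members were higher and 4 lower at p under 0.05, beside 6.11% and 7.81% of all probe sets.

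**Figure D1:**
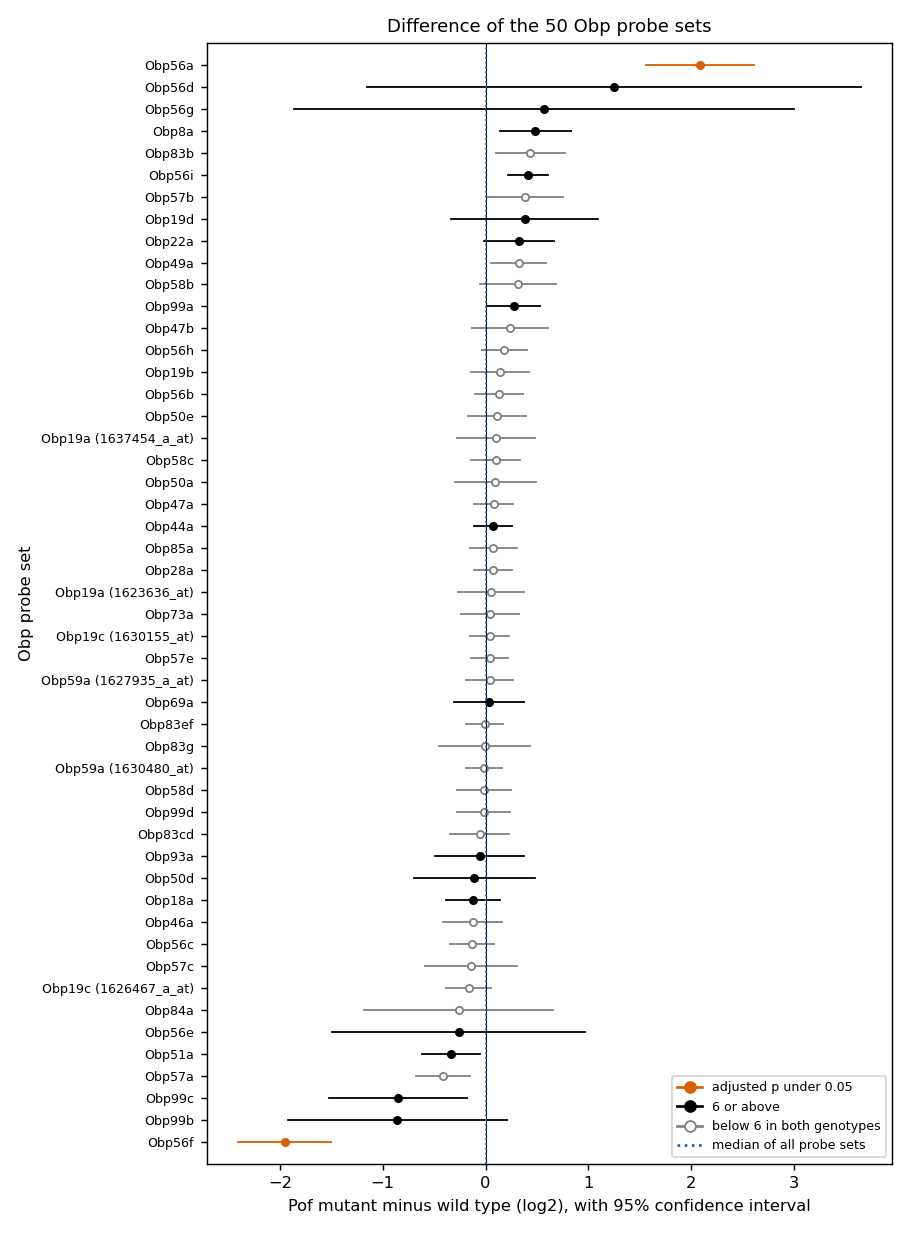
Difference of each of the 50 Obp probe sets, *Pof* mutant minus wild type on the log2 scale (horizontal axis), with its 95% confidence interval from limma over 3 arrays per genotype; filled points were at 6 or above and open points below 6 in both genotypes. *Obp56a* at 2.08 and *Obp56f* at -1.95 lie at the ends and are the 2 called members. Of the 50 points, 44 lie within 0.5 of zero, beside 12652 of 13647 for all probe sets.

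Both called members belong to the Obp56 genes on chromosome arm 2R, and they moved in opposite directions. *Obp56a*, whose relative in the blow fly Phormia regina carries fatty acids during feeding, had levels of 9.31, 8.45 and 8.82 in *Pof* mutant testes, against 6.87, 6.87 and 6.58 in wild type testes. The lowest mutant array was thus well above the highest wild type array, and the wild type arrays lay close above 6. The means were 8.86 ± 0.43 in the mutant and 6.77 ± 0.17 in the wild type (SD, n = 3 each), a difference of 2.08 (SE 0.22, 95% confidence interval 1.56 to 2.61, limma adjusted p = 0.00544). On a linear scale *Obp56a* was 4.24-fold higher in the mutant. In whole testes a change in the number of expressing cells and a change in RNA per cell cannot be told apart, here and for every gene below.

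*Obp56f*, a gene of the seminal fluid group, had levels of 9.05, 9.70 and 9.20 in the mutant, against 11.43, 11.07 and 11.31 in the wild type. All mutant arrays were below all wild type arrays by more than 1. The means were 9.32 ± 0.34 in the mutant and 11.27 ± 0.19 in the wild type (SD, n = 3 each), a difference of -1.95 (SE 0.19, 95% confidence interval -2.41 to -1.50, limma adjusted p = 0.00404). The mutant thus held 25.8% of the wild type level. *Obp56f* stayed well above 6 in both genotypes, whereas *Obp56a* was near that mark in the wild type.

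**Figure D2:**
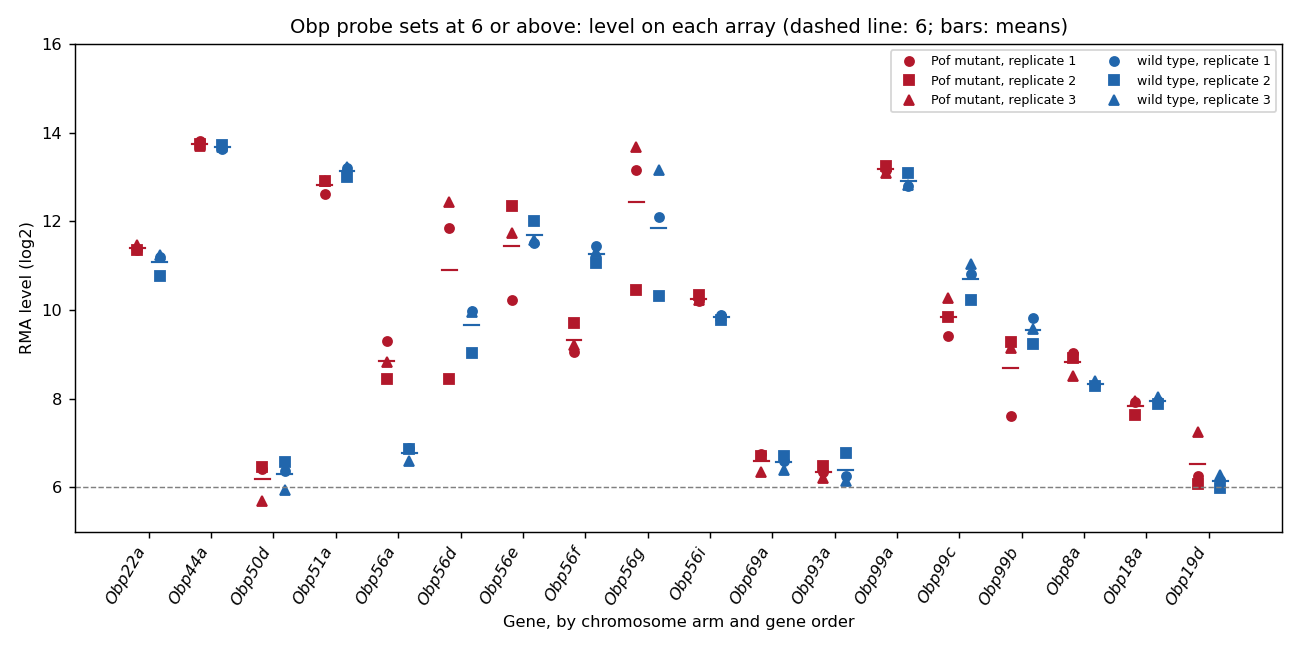
RMA level (log2, vertical axis) of the 18 Obp probe sets with a mean of 6 or above, on each of the 3 Pof mutant arrays (red, left of each gene) and 3 wild type arrays (blue, right), with short bars for the means. *Obp56a* is higher and *Obp56f* lower on all mutant arrays. The squares of replicate 2 are the lowest of their genotype for *Obp56d* and *Obp56g*, and by less for *Obp18a* and *Obp19d*.

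The 9 Obp56 genes, named a to i in their order along 2R, form a cluster in the Release 6 RefSeq gene order that is interrupted by a few other genes. *Obp56b*, *Obp56c* and *Obp56h*, which lie among the others, were below 6 on all arrays, with differences of 0.13, -0.13 and 0.18. Next to the called genes, the differences were 0.13 for *Obp56b* beside *Obp56a*, and -0.26 for *Obp56e* and -0.0036 for *CG8517* on either side of *Obp56f*. The olfactory receptor gene *Or56a* (difference 0.10) and *Toll-7* (-0.030), a gene of the Toll receptor family, also lie within the cluster. Outside it, *CG34198* and *CG15128* before *Obp56a* differed by -0.28 and -0.026, and *CG13872* after *Obp56i* by 0.26. None of these 6 genes outside the family passed the test (limma adjusted p from 0.491 to 0.992). Another 4 genes of the stretch had no probe set of their own and were not analysed here.

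**Figure D3:**
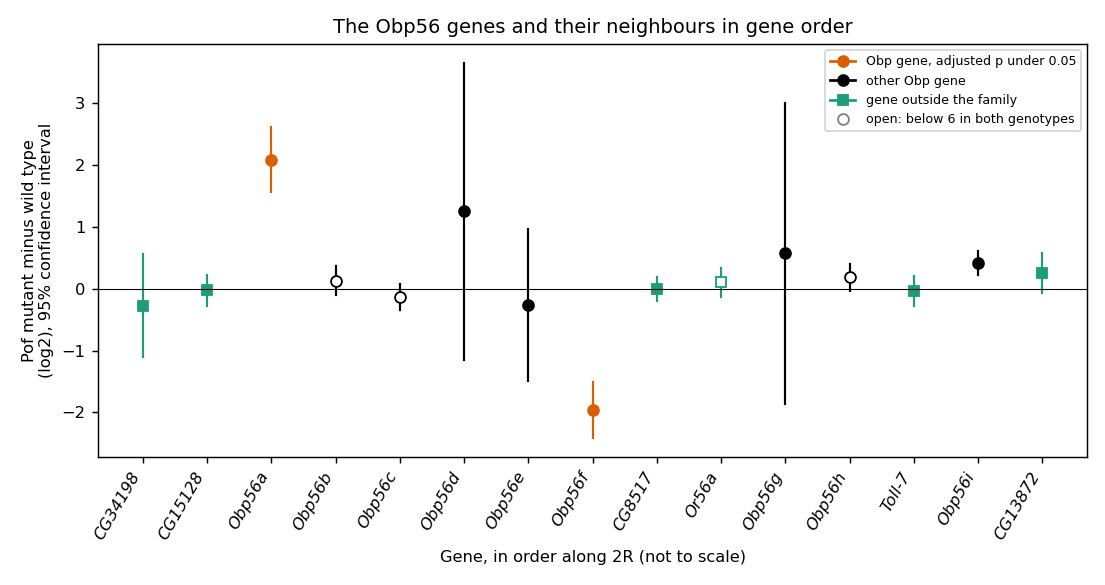
Difference of the Obp56 genes (circles) and of the genes between and beside them (squares) in their order along 2R, *Pof* mutant minus wild type on the log2 scale, with 95% confidence intervals from limma over 3 arrays per genotype; open symbols were below 6 in both genotypes and the spacing is not to scale. *Obp56a* at 2.08 and *Obp56f* at -1.95 lie far from the genes outside the family, which are between -0.28 and 0.26.

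*Obp56i*, the last of the cluster and another seminal fluid gene, was measured tightly. Its levels were 10.20, 10.33 and 10.21 in the mutant, against 9.88, 9.77 and 9.86 in the wild type, and the groups did not overlap. The difference of 0.41 (SE 0.082) missed the threshold (limma adjusted p = 0.0628).

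*Obp56d*, *Obp56g* and *Obp56e* were among the most variable probe sets of the arrays. Their residual SD within a genotype was 1.57, 1.59 and 0.80, larger than that of 99.2%, 99.2% and 97.9% of all probe sets. For *Obp56d*, expressed in taste and smell organs, the levels were 11.85, 8.44 and 12.44 in the mutant, against 9.98, 9.04 and 9.96 in the wild type. Replicate 2 was the lowest array of each genotype, and outside it both mutant arrays were above all wild type arrays. The difference was 1.25 (SE 1.00, 95% confidence interval -1.15 to 3.65, limma adjusted p = 0.690). It was 2.48 without mutant replicate 2 (adjusted p = 0.0296) and 2.17 without both replicate 2 arrays (adjusted p = 0.00862). It was 0.78 without mutant replicate 1, 0.48 without mutant replicate 3 and 0.94 without wild type replicate 2, with an adjusted p up to 0.898, so that the size of the difference and the call depended on single arrays.

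*Obp56g*, a gene of the ejaculatory tract with a part in forming the mating plug, had levels of 13.16, 10.45 and 13.68 in the mutant, against 12.09, 10.32 and 13.16 in the wild type. Here too replicate 2 was the lowest in both genotypes, and the groups overlapped widely. The difference was 0.57 (SE 1.02, limma adjusted p = 0.885). Between arrays of the same replicate number *Obp56g* was higher in the mutant for all 3 numbers. With the replicate number as a block the SE was 0.18 (limma adjusted p = 0.180). The labels do not state that same-numbered arrays were paired, and mutant replicate 1 was level with wild type replicate 3 (13.16 each). Replicate 2 minus the mean of the other arrays of its genotype was -2.97 in the mutant and -2.31 in the wild type for *Obp56g*, and -3.70 in the mutant and -0.93 in the wild type for *Obp56d*.

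Some other genes were low on the same arrays. *EbpII*, of the ejaculatory bulb, was 13.47, 11.07 and 13.93 in the mutant, against 12.82, 10.91 and 13.47 in the wild type. *EbpIII*, which encodes another ejaculatory bulb protein, was 12.84, 11.51 and 13.53 in the mutant, against 12.21, 11.48 and 12.79 in the wild type. *Act79B*, a muscle actin, was 9.12, 6.39 and 9.72 in the mutant, against 8.37, 6.20 and 9.86 in the wild type. The 3 measured ejaculatory duct and bulb genes summed to 14.24 to 15.04 in the mutant and 14.25 to 14.96 in the wild type, and neither they nor the 4 muscle genes were called by limma, with or without the block, while 1 of each list was lower at an unadjusted p under 0.05. For *EbpII*, *EbpIII* and *Act79B*, as for *Obp56d* and *Obp56g*, replicate 2 was the lowest array of both genotypes. The lists as a whole did not share this in the mutant, where replicate 2 was the lowest array for 1 of 3 duct and bulb genes and 3 of 4 muscle genes, whereas it was the lowest wild type array for all 7. It was also the lowest wild type array for all 15 accessory gland genes and for 6 of 7 Obp genes of the seminal fluid. In the mutant it was the lowest for 3 of the 15 and 1 of the 7. *Gld*, of the ejaculatory duct, was 10.66, 10.86 and 11.01 in the mutant, against 11.67, 11.21 and 11.90 in the wild type, without overlap (difference -0.75, adjusted p = 0.125). The part of ejaculatory bulb or muscle tissue in the values of the Obp genes was not tested.

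*Obp56e*, a seminal fluid gene, behaved otherwise, with levels of 10.22, 12.34 and 11.73 in the mutant, against 11.50, 12.01 and 11.57 in the wild type. Replicate 1 was its lowest mutant array and replicate 2 the highest array of each genotype. The difference of -0.26 (SE 0.51, limma adjusted p = 0.897) turned to 0.35 without mutant replicate 1.

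**Figure D4:**
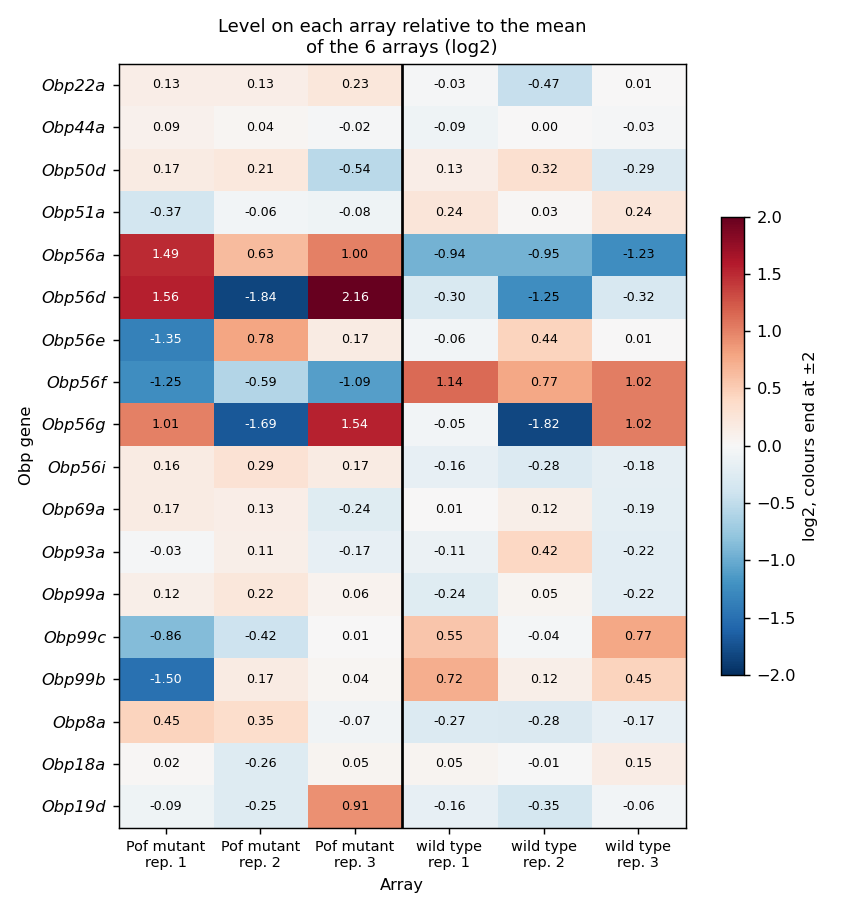
Level of the 18 Obp genes with a mean of 6 or above on each array, relative to the mean over the 6 arrays (log2; red above, blue below, colours end at 2), with the 3 Pof mutant arrays on the left and the 3 wild type arrays on the right. *Obp56a* and *Obp56f* change sign between genotypes, as do *Obp51a* and *Obp56i* by less. *Obp56d* and *Obp56g* are furthest below their mean on replicate 2 of both genotypes, and *Obp56d* is below it on all wild type arrays.

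The genes known from the seminal fluid were all above 6, namely *Obp8a*, *Obp22a*, *Obp51a*, *Obp56e*, *Obp56f*, *Obp56g* and *Obp56i*. Of these 7, only *Obp56f* passed the test, and the median difference was 0.32 beside 0.0067 for all probe sets. At an unadjusted p under 0.05, 2 were higher and 2 lower by limma, beside 6.11% and 7.81% of all probe sets. All mutant arrays were above all wild type arrays for 3 (background 9.13%) and below them for 2 (background 10.8%). Their summed level overlapped between the genotypes, at 14.26 to 14.83 in the mutant and 14.19 to 14.77 in the wild type. *Obp8a*, on the X chromosome, had levels of 9.02, 8.92 and 8.51 in the mutant, against 8.30, 8.29 and 8.40 in the wild type. The groups did not overlap, and the difference was 0.49 (SE 0.14, limma adjusted p = 0.185). It was 0.64 without mutant replicate 3, with an adjusted p of 0.0315. *Obp22a* was 11.36, 11.36 and 11.46 in the mutant, against 11.20, 10.77 and 11.24 in the wild type (difference 0.32, adjusted p = 0.378). *Obp51a* was 12.61, 12.92 and 12.90 in the mutant, against 13.21, 13.01 and 13.21 in the wild type (difference -0.34, adjusted p = 0.264). Neither pair of groups overlapped, and the directions were opposite. Accessory gland genes showed no call in 15 by limma, with or without the block, and 3 higher and 0 lower at an unadjusted p under 0.05, with a median difference of 0.083. The part of accessory gland tissue in the seminal fluid group was not tested.

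*Obp44a*, abundant in glia, and *Obp99a*, *Obp99b* and *Obp99c*, known from fat body and haemolymph, were also above 6. None of these 4 passed the test by limma, with or without the block. At an unadjusted p under 0.05, 1 was higher and 1 lower, beside 6.11% and 7.81% of all probe sets. *Obp44a* was the least variable of them, at 13.80, 13.75 and 13.69 in the mutant, against 13.62, 13.71 and 13.69 in the wild type (difference 0.076, 95% confidence interval -0.11 to 0.26). *Obp99a* was 13.15, 13.26 and 13.10 in the mutant, against 12.79, 13.08 and 12.82 in the wild type, a difference of 0.27 (adjusted p = 0.328) with groups that only just failed to overlap.

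*Obp99c* and *Obp99b* had lower mean levels in the mutant and did not pass the test. *Obp99c* was 9.40, 9.84 and 10.27 in the mutant, against 10.81, 10.22 and 11.03 in the wild type. It was lower on the mutant array for each of the 3 replicate numbers, with groups that overlapped (difference -0.85, SE 0.28, limma adjusted p = 0.232). *Obp99b*, whose fat body expression depends on sex, was 7.61, 9.28 and 9.15 in the mutant, against 9.83, 9.23 and 9.56 in the wild type (difference -0.86, SE 0.44, adjusted p = 0.486), and mutant replicate 1 was far below the other arrays. The *Obp99b* difference was -0.32 without mutant replicate 1 and -1.32 without both replicate 2 arrays. Beside these genes, 3 of 9 fat body and haemolymph probe sets fell. *Lsp2*, a larval serum protein, was 6.48, 6.74 and 6.90 in the mutant, against 8.78, 7.84 and 8.37 in the wild type (difference -1.62, limma adjusted p = 0.0223). *Fbp1* and *Fbp2*, fat body proteins, differed by -1.66 and -2.09 (adjusted p = 0.0338 and 0.00968), and with the block *Fbp1* no longer passed (adjusted p = 0.0517). Both were below 6 on all mutant arrays, with means of 5.39 and 5.69, against 7.06 and 7.78 in the wild type. The summed level of the list overlapped, at 10.69 to 12.25 in the mutant and 10.82 to 11.14 in the wild type, and *Tsf1*, the gene for transferrin, was high on mutant replicate 1 at 11.74. The yolk protein genes *Yp1* and *Yp2* were below 6 on all arrays. The part of fat body tissue in the values of *Obp99b* and *Obp99c* was not tested.

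The Obp genes best known from smell were mostly low. Of 9 antennal probe sets of 7 genes, 7 were below 6 in both genotypes, and only *Obp56d* and *Obp69a* were at 6 or above. *Obp69a*, linked to the response to a male pheromone, was 6.75, 6.71 and 6.34 in the mutant, against 6.59, 6.70 and 6.39 in the wild type, and the groups overlapped (difference 0.035). *Obp83b* was 5.72, 5.98 and 6.23 in the mutant, against 5.49, 5.63 and 5.50 in the wild type, without overlap (difference 0.44, limma adjusted p = 0.220). *Obp84a* was high on replicate 2 of both genotypes, at 4.57, 5.71 and 4.61 in the mutant and 5.30, 5.72 and 4.66 in the wild type (difference -0.26). None of the 9 passed by limma, with or without the block. At an unadjusted p under 0.05, 1 was higher and 0 lower, beside 6.11% and 7.81% of all probe sets.

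The 3 measured genes of taste organs, *Obp19b*, *Obp49a* and *Obp57e*, were below 6 on all arrays and none passed, with or without the block. At an unadjusted p under 0.05, 1 was higher and 0 lower, beside 6.11% and 7.81% of all probe sets. *Obp49a*, which in the mouthparts lets bitter compounds suppress the response to sugar, was 5.50, 5.77 and 5.55 in the mutant, against 5.24, 5.42 and 5.19 in the wild type, without overlap (difference 0.32, limma adjusted p = 0.251).

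Other proteins of odour and pheromone detection were mostly low too, and 21 of 26 probe sets of 25 genes were below 6 in both genotypes. Among them were the receptor partner *Orco* (difference -7.21e-04) and *lush* (0.16), an odorant-binding protein gene named outside the family's scheme. *EbpIII* and *Phk-3* are also counted in the 26 and were high, at 11.48 to 13.53 and 8.02 to 10.83 over all arrays. Of these 26, 1 rose and 0 fell, with a median difference of 0.072. The one was *Snmp2*, related to the pheromone co-receptor gene *Snmp1*, with levels of 5.88, 5.93 and 6.22 in the mutant, against 5.19, 4.91 and 4.95 in the wild type. The groups did not overlap and the difference was 0.99 (SE 0.13, limma adjusted p = 0.0122), while the second probe set of *Snmp2* differed by 0.29 (adjusted p = 0.257). *CheB38c*, of a family expressed in taste hairs, was 5.37, 5.60 and 5.67 in the mutant, against 6.37, 6.88 and 6.08 in the wild type (difference -0.90, adjusted p = 0.0994).

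The remaining Obp genes above 6 did not separate the genotypes. *Obp18a* was 7.91, 7.63 and 7.94 in the mutant, against 7.94, 7.88 and 8.04 in the wild type (difference -0.12). *Obp19d* was 6.24, 6.08 and 7.24 in the mutant, against 6.17, 5.98 and 6.28 in the wild type (difference 0.38), with mutant replicate 3 above the rest, and its probe set may bind several transcripts. *Obp50d* was 6.41, 6.44 and 5.70 in the mutant, against 6.37, 6.56 and 5.94 in the wild type (difference -0.11). *Obp93a* was 6.34, 6.48 and 6.20 in the mutant, against 6.25, 6.78 and 6.15 in the wild type (difference -0.058). For each of these 4 genes the groups overlapped and the limma adjusted p was between 0.682 and 0.942.

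The 32 probe sets below 6 in both genotypes differed by -0.41 to 0.44, with single levels between 3.84 and 6.26 and a median difference of 0.048. None passed by limma, with or without the block. At an unadjusted p under 0.05, 3 were higher and 1 lower, beside 172 and 156 of all 5413 probe sets below 6 in both genotypes. In 5 of the 32 the groups did not overlap. The mutant arrays were higher for *Obp49a*, *Obp57b* (difference 0.39) and *Obp83b*, and lower for *Obp57a* (-0.41) and 1 of 2 *Obp19c* probe sets (-0.16). Of the same 5413, all mutant arrays were above all wild type arrays for 491 and below them for 257. The differences of *Obp57a* and *Obp57b*, which lie close together on 2R, had opposite signs, but neither passed the test (limma adjusted p = 0.145 and 0.320). At levels this close to background a difference in expression may not be detectable on the arrays. The 2 probe sets each of *Obp19a*, *Obp19c* and *Obp59a* were all below 6, and their differences were 0.052 and 0.10 for *Obp19a*, -0.16 and 0.042 for *Obp19c*, and 0.039 and -0.011 for *Obp59a*.

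By position, 27 probe sets of 26 Obp genes lie on 2R, the arm that also holds *Pof*, and 11 genes lie on 3R, 6 on X, 2 on 2L and 2 on 3L. No member lies on the fourth chromosome, which the Pof protein binds. Both called members were on 2R, where 3.00% of 2733 probe sets were called in either direction. On X, none of the 8 Obp probe sets was called by limma, with or without the block. At an unadjusted p under 0.05, 1 of them, *Obp8a*, was higher, beside 6.11% of all probe sets. Of all 2188 probe sets on X, 11 were called (0.503%). The median difference of the members was 0.079 on 2R and 0.042 on the other arms.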

How the data were processed

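RNA of testes from 3 *Pof* mutant and 3 wild type replicates was measured on Affymetrix Drosophila version 2 arrays. Deposited levels, on a log2 scale, had been computed by the authors with RMA (version not given in the sources used here) and were used without the study's minimum or constant. Of 18952 probe sets, 402 name several genes and 4903 none, and the 13647 others were tested. Genotypes were taken from the sample labels and compared with limma 3.58.1 (lmFit and eBayes) in R 4.3.3, *Pof* mutant minus wild type, with Benjamini-Hochberg adjustment over all tested probe sets. Figures were drawn with matplotlib 3.10.9 in Python 3.11.15. RMA brings the probe values of all arrays to 1 distribution, so a change shared by most genes would be removed, and differences of weakly expressed genes can be understated. The summarised levels still differed slightly between arrays, with medians over the tested probe sets from 6.57 (mutant replicate 3) to 6.75 (wild type replicate 3). The number of arrays limits the precision.

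Same-numbered arrays deviated together from their genotype means over all tested probe sets (r = 0.246, 0.850 and 0.551). The alternative with a replicate block treated the numbers as pairs, although the labels state no pairing. Mutant 3 with wild type 1 (0.542) and mutant 1 with wild type 3 (0.471) also deviated together, so only replicate 2 was set apart by its number. Replicate 2 correlated below 0 with every array of another number, which is partly built in because deviations cancel within a genotype. The other alternatives were the study's constant, median centring, 2 filters at a level of 6, all probe sets of the file, an average per gene, a variance trend, each array left out, and both replicate 2 arrays left out. Summed levels of gene lists are log2 of the sum of linear levels over the list's probe sets. Members and gene lists were chosen with earlier results of these data known. In full are given members that passed the test, that averaged 6 or more in either genotype, or that differed by 0.5 or more without overlap. A few low members were named after their values were seen. Chromosome arms and gene order follow the Release 6 RefSeq annotation, to which all 50 probe sets were matched.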

Additional observations from a re-analysis of the deposited data

How the results depend on the processing

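*Obp56a* (1.86 to 2.34, limma adjusted p from 9.92e-04 to 0.0322), *Obp56f* (-2.25 to -1.82, adjusted p from 0.00139 to 0.0296) and *Pof* (-2.64 to -2.52) passed the test under all 15 alternatives, and the count of Obp probe sets lower in the mutant was 1 in each. The count of higher ones was 1 to 2 with 1 array left out and 2 without both replicate 2 arrays. It was 2 without mutant replicate 2, which added *Obp56d* (2.48), and without mutant replicate 3, which added *Obp8a* (0.64). Over all probe sets, 339 were called, 545 with the replicate block and 144 to 335 with 1 array left out (144 without wild type replicate 1, 176 without mutant replicate 1, 201 without wild type replicate 3 and 216 without mutant replicate 2). The replicate block changed no call among the Obp genes. Some differences changed sign with 1 array left out. *Obp50d* lay between -0.28 and 0.13, *Obp56e* between -0.72 and 0.35, *Obp56g* between -0.20 and 1.56, *Obp69a* between -0.050 and 0.17 and *Obp93a* between -0.18 and 0.14. *Obp93a* also turned to 0.0064 with the constant, 3.03e-04 with median centring and 0.066 without both replicate 2 arrays. None of these passed the test. The cause was not tested. The median difference of the family stayed between 0.018 and 0.11.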

Other observations

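Another 4 probe sets name an Obp gene together with a second gene and were not counted as members. The first of 2 probe sets shared by *Obp57d* and *Cpr57A*, a cuticle protein gene, had levels of 6.24, 5.95 and 6.70 in *Pof* mutant testes, against 5.98, 5.88 and 6.16 in wild type testes, and the second was below 6 on all arrays. The 2 probe sets shared by *Obp50b* and *Obp50c* had levels of 8.57, 8.69 and 8.24, and of 9.39, 9.31 and 8.99, in the mutant, against 8.70, 8.87 and 8.32, and 9.42, 9.48 and 9.17, in the wild type. All 3 of these probe sets above 6 had overlapping groups.

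Of the 50 members, 5 had a residual SD within a genotype above 0.5, which is 10% beside 3.72% of all probe sets. They were *Obp56d*, *Obp56e*, *Obp56g*, *Obp84a* and *Obp99b*. The median residual SD was 0.151 for the members and 0.148 for all probe sets.

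*Phk-3*, a pheromone-binding protein gene of another family, was 9.81, 8.02 and 10.83 in the mutant, against 8.82, 8.14 and 10.07 in the wild type, so replicate 2 was its lowest array in both genotypes.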
